A study of Mus musculus with 4 samples.

Results

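The expression of 10 genes of the NF-kB pathway was examined in sorted mouse beta cells: the subunit genes Nfkb1, Nfkb2, Rela and Relb, the inhibitor and regulator genes Nfkbia, Nfkbie, Nfkbiz and Tnfaip3, and the target genes Birc3 and Icam1. These 10 were found by gene name among the 31017 gene names of the count tables, and all 10 passed the filter on low counts, which 13241 genes passed in all. They were selected on gene names with the difference between CD63 high and CD63 low cells in these same libraries already known. Their values in that contrast are therefore given as a description, without a test.

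The data are 4 bulk RNA-seq libraries from pancreatic islets of 10-week-old wild type C57BL/6J male mice, 2 from beta cells sorted as CD63 high and 2 from beta cells sorted as CD63 low. CD63 is a tetraspanin of late endosomes, lysosomes and secretory granules. Islets of both groups had been kept overnight in culture and were taken apart with trypsin before sorting, and CD63 is the only sorting marker the labels name. Nothing in the labels says whether the replicates came from separate mice or sorts, so p-values below cover only the spread among the 4 libraries, which may be technical. Library totals ran from 29249270 to 35003307 counts. A list of 10 beta cell markers summed to between 537654 and 622133 CPM (counts scaled to the library total) in each library. Cd63 itself (chromosome 10, 128900989 to 128912822, mm10) stood at 1973 and 2076 CPM in CD63 high cells and only 1186 and 1120 CPM in CD63 low cells, which checks the sort and is no finding. In bulk libraries, fewer cells of a type and less RNA per cell cannot be told apart.

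NF-kB is a family of dimeric transcription factors that is held in the cytoplasm by IkB proteins. Signals from cytokine and pattern recognition receptors activate the IKK kinase complex, which marks IkB proteins for breakdown and lets dimers of Rela and Nfkb1 products enter the nucleus. A second arm runs through the kinase Map3k14 and the processing of the Nfkb2 product, which partners with Relb. Several of the genes that NF-kB switches on encode its own inhibitors, among them Nfkbia and Tnfaip3, which gives the pathway its negative feedback. In islets the pathway is best known from the response of beta cells to interleukin 1 and tumour necrosis factor.

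NF-kB binds short DNA elements called kappaB sites, and the promoters of several members hold such letters. Promoter windows from RefSeq on the GRCm38.p6 build, which is mm10, were matched to 7 of the 10 members by symbol, and the 250 bases before each annotated start were searched on both strands. The search used the 10-letter kappaB consensus and the 9-letter motif GGANNTTCC, which can overlap it. Of all 32851 windows 7.25% held the consensus and 3.59% the 9-letter motif, against 6 of the 10 windows of the members for each. By gene, 4 of 7 members had the consensus in a window and 5 of 7 the 9-letter motif. Among all 27025 genes with a window these shares were 8.23% and 4.12%. The promoters of Nfkbia, a member that was higher in CD63 high cells, of Nfkbie, a member that was not, and of Icam1, the member with the largest difference, are shown in 5′ to 3′ direction of the gene. Capitals mark the matches to either motif.

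Nfkbia, chr12:55492648-55492897, minus strand: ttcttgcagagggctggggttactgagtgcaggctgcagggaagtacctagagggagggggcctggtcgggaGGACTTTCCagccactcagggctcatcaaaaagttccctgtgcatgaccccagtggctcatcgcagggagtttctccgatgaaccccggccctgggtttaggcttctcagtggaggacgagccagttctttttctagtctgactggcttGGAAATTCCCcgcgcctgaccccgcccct
Nfkbie, chr17:45555450-45555699, plus strand: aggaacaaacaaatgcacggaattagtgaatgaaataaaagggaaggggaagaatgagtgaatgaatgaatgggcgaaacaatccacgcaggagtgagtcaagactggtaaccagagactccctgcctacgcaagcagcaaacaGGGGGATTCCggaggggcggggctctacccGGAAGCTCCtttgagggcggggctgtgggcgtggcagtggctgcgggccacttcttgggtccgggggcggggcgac
Icam1, chr9:21015690-21015939, plus strand: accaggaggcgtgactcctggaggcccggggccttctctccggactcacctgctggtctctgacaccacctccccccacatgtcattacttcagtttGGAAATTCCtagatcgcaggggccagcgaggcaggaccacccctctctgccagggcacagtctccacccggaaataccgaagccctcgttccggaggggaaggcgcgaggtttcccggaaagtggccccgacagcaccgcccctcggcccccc

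In Nfkbia a consensus match began 29 bases before the start, with the 9-letter motif inside it, and another 9-letter match began 178 bases before it. Nfkbie held a consensus match at 106 bases and a 9-letter match at 76 bases before its start. In Icam1 only the 9-letter motif was found, at 153 bases. Short stretches of 30 bases are shown for Tnfaip3 and for 2 of the 3 annotated starts of Nfkb2, whose windows overlap annotated UTRs.

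Tnfaip3, chr10:19015411-19015440, minus strand: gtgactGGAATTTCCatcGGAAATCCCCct
Nfkb2, the first start, chr19:46304697-46304726, plus strand: cGGGAATTCCCCccctcggggggccgaaag
Nfkb2, the third start, chr19:46305695-46305724, plus strand: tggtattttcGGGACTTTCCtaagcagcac

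The Tnfaip3 stretch carries a 9-letter match 24 bases and a consensus match 12 bases before the start, and the stretch at the first start of Nfkb2 has 2 overlapping consensus matches. Neither motif was found in the windows of Birc3 and Rela. A match is a description of letters in these windows, and no binding was measured.

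**Figure D1:**
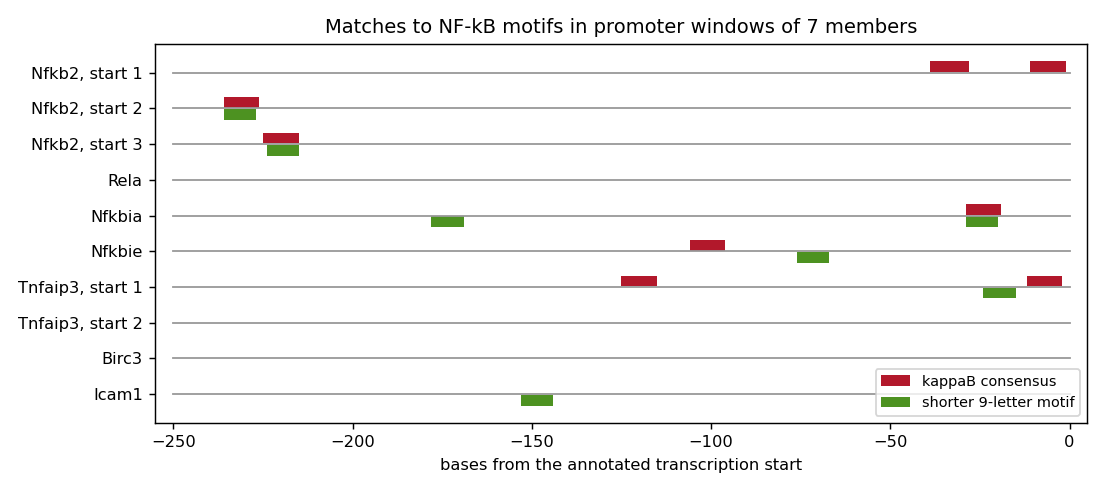
Positions of matches to the kappaB consensus (red, above the line) and to the 9-letter motif (green, below the line) in the 250 bases before each annotated start of 7 members, with distance from the start in bases on the horizontal axis. Tnfaip3 and Nfkb2 have more than 1 annotated start, Nfkbia, Nfkbie and Icam1 have matches, and the lines of Birc3 and Rela carry none.

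None of the 4 subunit genes was called by edgeR with all libraries. The log2 fold changes of Rela and Nfkb1, the genes of the classical dimer, were smaller than their standard errors, and those of Relb and Nfkb2, the genes of the second arm, were near 1. Rela (chromosome 19, 5637483 to 5648130, mm10), which encodes the main activating subunit, was at 41.1 and 33.0 CPM in CD63 high and at 35.7 and 35.6 CPM in CD63 low replicates 1 and 2. The CD63 low values lay between the CD63 high values, and the log2 fold change was 0.06 (SE 0.21). Nfkb1 (chromosome 3, 135584655 to 135691547), whose product is the usual partner of Rela, was at 15.5 and 13.4 CPM in CD63 high and at 16.9 and 15.9 CPM in CD63 low cells. Both CD63 high values were the lower, by a margin smaller than the gap between the CD63 high libraries, with a log2 fold change of -0.18 (SE 0.24).

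Relb (chromosome 7, 19606217 to 19629438), the subunit gene of the second arm, was at 13.7 CPM in each CD63 high library and at 6.16 and 7.31 CPM in CD63 low replicates 1 and 2. The groups did not overlap, and the fitted level was 2.03-fold higher with CD63 high (log2 fold change 1.02, SE 0.28). Nfkb2 (chromosome 19, 46304737 to 46312090), which encodes the partner of Relb, was at 20.8 and 13.0 CPM in CD63 high and at 9.92 and 8.73 CPM in CD63 low cells. The groups were again apart, with CD63 high replicate 1 well above the other libraries. The log2 fold change was 0.86 (SE 0.29) over all libraries and 0.48 without that replicate.

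Of the inhibitor and regulator genes, edgeR called Nfkbia higher in CD63 high cells and did not call Nfkbie, Nfkbiz or Tnfaip3. Nfkbia (chromosome 12, 55489410 to 55492647), which encodes IkB alpha, the inhibitor that NF-kB itself induces, was the most abundant member per kilobase of exon in both groups. It was at 199 and 120 CPM in CD63 high cells and only 74.5 and 47.1 CPM in CD63 low cells. All CD63 high values were above all CD63 low values, with a 2.63-fold difference (log2 fold change 1.39, SE 0.29).

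Tnfaip3 (chromosome 10, 19000910 to 19015657), a ubiquitin-editing enzyme that shuts off signalling upstream of IKK, was at 7.47 and 3.14 CPM in CD63 high and at 0.626 and 1.33 CPM in CD63 low cells. Its counts were small, from 19 in CD63 low replicate 1 to 234 in CD63 high replicate 1. Its log2 fold change of 2.42 had the widest standard error of the members, 0.57. Nfkbiz (chromosome 16, 55811375 to 55838899), a nuclear IkB protein that acts as a cofactor at a subset of targets, was at 53.9 and 29.2 CPM in CD63 high and at 29.5 and 19.9 CPM in CD63 low cells. Its groups overlapped, since CD63 high replicate 2 lay just under CD63 low replicate 1, and the log2 fold change was 0.75 (SE 0.31). For Nfkbie (chromosome 17, 45555716 to 45563169), the gene of IkB epsilon, the values were 4.18 and 4.40 CPM in CD63 high and 5.70 and 4.49 CPM in CD63 low cells. Both CD63 high values were the lower, by less than the gap between the CD63 low libraries, and the log2 fold change was -0.25 (SE 0.36).

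The target genes were higher in CD63 high cells. Icam1 (chromosome 9, 21015985 to 21028817), an adhesion molecule through which leukocytes bind activated cells, was at 16.7 and 8.70 CPM in CD63 high cells and only 0.791 and 1.18 CPM in CD63 low cells. The lowest CD63 high value was thus far above the highest CD63 low value, and the fitted difference was 12.7-fold (log2 fold change 3.67, SE 0.44). It rested on 764 counts over the CD63 high libraries and 70 over the CD63 low libraries. Of all tested genes, 2.18% had a larger log2 fold change. Birc3 (chromosome 9, 7848699 to 7873186), a ubiquitin ligase of the tumour necrosis factor receptor complex that protects cells from death, was at 32.8 and 18.8 CPM in CD63 high and at 11.2 and 9.70 CPM in CD63 low cells. Its groups did not overlap, at a 2.48-fold difference (log2 fold change 1.31, SE 0.30).

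**Figure D2:**
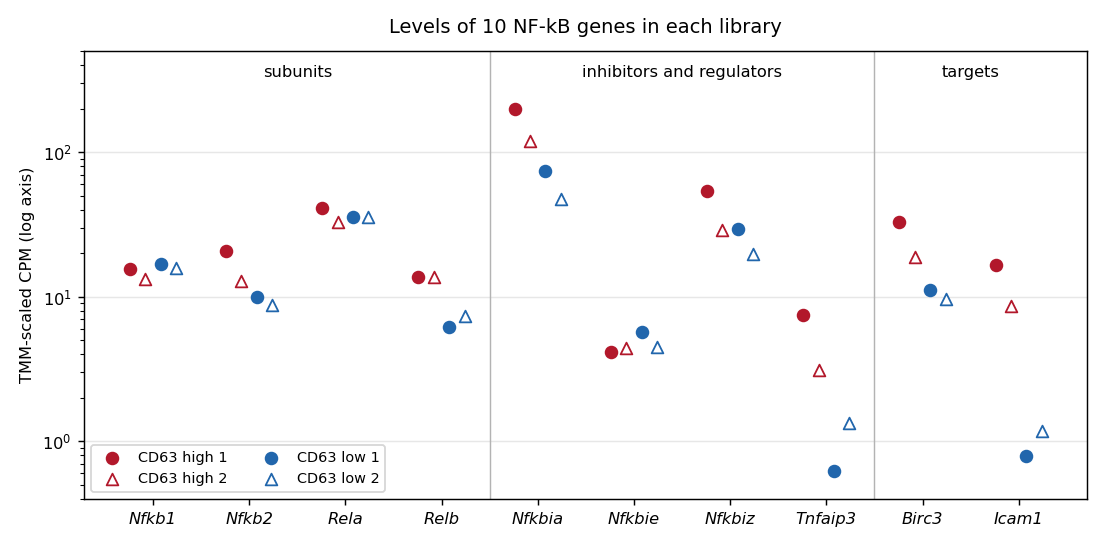
TMM-scaled CPM of the 10 members on a log axis, with 1 point per library (red CD63 high, blue CD63 low, filled circles replicate 1, open triangles replicate 2). Rela stays between 33.0 and 41.1 CPM in the 4 libraries, whereas the red points of Nfkbia, Birc3 and Icam1 all lie above the blue ones.

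Per kilobase of exon, the order of the members was led by Nfkbia at 99.1 CPM per kilobase in CD63 high and 37.8 in CD63 low cells, followed by Rela at 13.6 and 13.1 and Nfkbiz at 8.28 and 4.92. Birc3 and Nfkb2 came next in CD63 high cells at 5.15 and 5.13 CPM per kilobase, a gap smaller than the spread between libraries of either gene. Relb followed at 3.52, Icam1 at 2.91, Nfkbie at 1.77, Nfkb1 at 1.20 and Tnfaip3 at 0.734 CPM per kilobase. In CD63 low cells Icam1 stood at 0.226 and Tnfaip3 at 0.136 CPM per kilobase, and these were the lowest members there.

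In the fit across all genes, edgeR's quasi-likelihood test called 3 of the 10 members higher at an adjusted p under 0.05 (Nfkbia, Birc3 and Icam1), where 2.50% of all tested genes were called higher, and it called none lower, where 0.287% were called lower. At an unadjusted edgeR p under 0.05, 7 members were higher and none was lower, against 8.95% and 5.96% of all tested genes. DESeq2 called 5 members higher and none lower, against 4.03% and 1.15% of all tested genes, and limma-voom called 2 higher and none lower, against 1.87% and 0.279%. Both CD63 high values lay above both CD63 low values for 6 members, as they did for 23.8% of all tested genes, and below them for 2, as for 22.2% of all tested genes. The median log2 fold change was 0.94 over the members and -0.01 over all tested genes. Because the members were chosen with this contrast known, nothing is read from these counts.

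In 8 of the 10 members CD63 high replicate 1 stood above replicate 2, as it did for 50.4% of all tested genes. Without replicate 1 only Icam1 was called. Without CD63 high replicate 2 there were 5 called members. The log2 fold change of Icam1 was 3.13 when the first of these libraries was left out and 4.07 when the second was. Corresponding values were 0.99 and 1.71 for Nfkbia, 0.85 and 1.65 for Birc3, and 1.66 and 2.91 for Tnfaip3. Without CD63 low replicate 1 there were 5 called members as well, and Tnfaip3 was at 3.09 without CD63 low replicate 2. Relb depended least on either CD63 high library, at 1.02 without the first or the second.

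**Figure D3:**
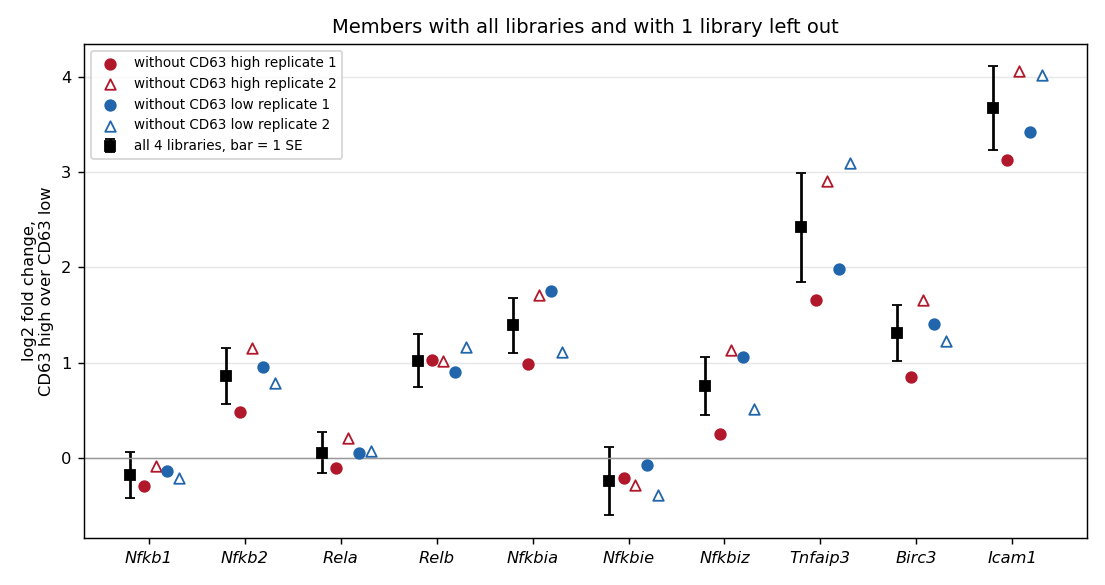
Log2 fold change of each member (CD63 high over CD63 low) with all 4 libraries (black squares, bars of 1 SE) and with 1 library left out (red CD63 high, blue CD63 low, filled circles replicate 1, open triangles replicate 2). Filled red circles lie lowest for every member but Relb and Nfkbie, and Relb barely moves with either CD63 high library left out.

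The rest of the pathway was followed in 7 lists by role with 133 genes, none of them a member and none in 2 lists. Of the 109 that could be tested, 20 rose and 1 fell in CD63 high cells by edgeR's test at an adjusted p under 0.05. Of all tested genes 2.50% were called higher and 0.287% lower. The median log2 fold change was 0.21 against -0.01 over all tested genes. The lists were chosen with earlier results of these data known, so these counts are a description. Irak3, Tlr4 and several target genes passed the filter on low counts through the CD63 high libraries alone and could only come out higher. Of the 20 rises 13 were target genes. The lists of 12 kinase and 25 adaptor genes had none, and at the shares above few or no calls would come from lists of that size.

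Among 6 other subunit and IkB genes, Bcl3 rose and the other 5 did not pass. Bcl3, a nuclear IkB protein that works with dimers of the Nfkb1 and Nfkb2 products, was at 117 and 123 CPM in CD63 high cells and only 67.7 and 57.2 CPM in CD63 low cells (log2 fold change 0.94, SE 0.20, edgeR adjusted p 0.0305). Without either CD63 high library that call ended (adjusted p 0.0520 and 0.111), as it did without CD63 low replicate 2 (0.0503). All 6 genes had positive log2 fold changes, with a median of 0.66.

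None of 12 IKK and upstream kinase genes was called in either direction by edgeR, DESeq2 or limma-voom, and 2 were higher at an unadjusted edgeR p under 0.05. Their median log2 fold change was 0.04. The 2 with the smallest p were Ikbke, an inducible IKK-related kinase, with a log2 fold change of 1.14 (SE 0.41, edgeR adjusted p 0.204), and Map3k8, a kinase held by the Nfkb1 precursor, at 1.71 (SE 0.69, edgeR adjusted p 0.270). Leaving out CD63 high replicate 2 or CD63 low replicate 2 brought Ikbke past the threshold, with adjusted p of 0.0333 and 0.0382.

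Of 25 adaptor and ubiquitin ligase genes none was called by edgeR or limma-voom, 2 were higher and 2 lower at an unadjusted edgeR p under 0.05, and DESeq2 called 2 lower. Traf5, an adaptor of tumour necrosis factor receptors, was at 0.957 and 0.686 CPM in CD63 high cells but 2.80 and 4.11 CPM in CD63 low cells (log2 fold change -2.07, SE 0.54, edgeR adjusted p 0.0756). Btrc, the ubiquitin ligase subunit that recognises phosphorylated IkB, was at -0.73 (SE 0.21, edgeR adjusted p 0.0993). For Traf5 the adjusted p was 0.0466 without CD63 high replicate 1 and 0.0404 without CD63 low replicate 1.

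Of 14 tested negative regulators 2 rose, none fell, and 12 did not pass. Irak3, an inactive kinase that damps Toll-like and interleukin 1 receptor signalling, had 8 counts over the CD63 low and 129 over the CD63 high libraries, with a log2 fold change of 4.17 (SE 0.81, edgeR adjusted p 0.0218). Zc3h12a, an RNA-degrading enzyme that removes inflammatory transcripts, was at 6.16 and 2.35 CPM against 0.264 and 0.667 CPM (log2 fold change 3.16, SE 0.68, edgeR adjusted p 0.0341). Its call ended without CD63 high replicate 1 (log2 fold change 2.30, adjusted p 0.239), and it was at 4.01 without CD63 low replicate 2. Both calls ended with limma-voom, at adjusted p of 0.0523 for Irak3 and 0.0836 for Zc3h12a. In the list, 1 gene was lower at an unadjusted edgeR p under 0.05, and DESeq2 and limma-voom called none lower.

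The receptors split. Of 15 tested genes 4 rose, 1 fell and 10 did not pass. Cd40 was at 14.1 and 9.75 CPM in CD63 high cells and only 2.97 and 2.28 CPM in CD63 low cells (log2 fold change 2.19, SE 0.35, edgeR adjusted p 0.00831). Tnfrsf1b, the inducible tumour necrosis factor receptor, was at 5.58 and 5.78 against 0.922 and 0.821 CPM (2.70, SE 0.44, edgeR adjusted p 0.00968). Tnfrsf12a, the TWEAK receptor, rose by 1.30 (SE 0.23, edgeR adjusted p 0.0134).

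Tlr4, the endotoxin receptor, had 23 and 47 counts among CD63 high and none among CD63 low libraries, which makes it at least 27.4-fold higher against a floor of 3 counts over both CD63 low libraries (edgeR adjusted p 0.0272, and 0.127 without CD63 high replicate 2). Il1r1, the signalling receptor of interleukin 1, went the other way. It was at 154 and 152 CPM in CD63 high cells but 303 and 291 CPM in CD63 low cells (log2 fold change -0.96, SE 0.19, edgeR adjusted p 0.0223). The groups lay far apart, yet the call ended without CD63 high replicate 1 or 2 (adjusted p 0.0691 and 0.112), while the log2 fold change stayed at -0.97 and -0.95. The common tumour necrosis factor receptor Tnfrsf1a was at 72.3 and 82.7 against 82.3 and 74.7 CPM, with a log2 fold change of -0.02 (SE 0.19). It is named after its values were seen.

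Only 5 of 13 ligand genes had enough counts to be tested, and edgeR and limma-voom called none, with 2 higher and none lower at an unadjusted edgeR p under 0.05. DESeq2 called 1 higher and none lower. The 2 with the smallest edgeR p were Il1b (log2 fold change 1.24, SE 0.35, adjusted p 0.102) and Il1a (2.10, SE 0.73, adjusted p 0.186), the genes of interleukin 1 beta and alpha. Tnf itself, named after its values were seen, had 11 and 42 counts among CD63 high and 7 and 9 among CD63 low libraries. The adjusted p of Il1b was 0.00588 without CD63 low replicate 1.

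The other target genes were the list with the most calls. Of 32 tested genes 13 rose, none fell and 19 did not pass. Positive log2 fold changes were seen in 30 of 32, with a median of 1.82. At an unadjusted edgeR p under 0.05, 22 were higher and 1 was lower. DESeq2 and limma-voom called 17 and 10 higher and none lower. The called genes Saa3, Cxcl1, Cxcl2, Cxcl5, Ccl7, Vcam1 and Mmp9 had too few counts in both CD63 low libraries to pass the filter there. They entered the test through the CD63 high libraries alone and could only come out higher. The counts and median of the list are therefore a description. Saa3, an acute phase protein, had 488 and 195 counts among CD63 high and none among CD63 low libraries, at least 267-fold higher against the same floor (edgeR adjusted p 0.000757). Cxcl1, a neutrophil chemokine, was at 14.5 and 7.83 CPM against 0.297 and 0.180 CPM (log2 fold change 5.55, SE 0.51, edgeR adjusted p 0.000774).

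Ier3, an early response gene linked to cell survival, was at 38.7 and 29.8 CPM against 8.99 and 6.11 CPM (2.18, SE 0.28, edgeR adjusted p 0.00331). Ccl7, a monocyte chemokine, had 241 counts over the CD63 high and 3 over the CD63 low libraries, a ratio of 94.3 with a 95% exact interval of 31.9 to 461 that covers counting error only (edgeR adjusted p 0.00384). Ccl2, Ccl5, Cxcl2, Cxcl5, Vcam1, Gadd45b, Lcn2, C3 and Mmp9 made up the other 9. Lcn2, an iron-binding acute phase protein, was at 501 and 78.5 CPM in the CD63 high and 6.95 and 2.95 CPM in the CD63 low replicates, so the CD63 high libraries were themselves far apart. Cxcl5 and Mmp9 had no count in CD63 low cells and were at least 41.9-fold and 20.3-fold higher against the floor. The Mmp9 call ended without CD63 high replicate 2, without either CD63 low library, with a robust dispersion and with library size as the only scaling. Vcam1 was not called without CD63 high replicate 2, and C3 was not called without CD63 high replicate 1. Limma-voom did not call Vcam1, Ccl5 and C3, and the robust dispersion did not call Lcn2 and C3. Irf1, Cd44 and Bcl2l1, named after their values were seen, had log2 fold changes of -0.13, 0.04 and 0.14.

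**Figure D4:**
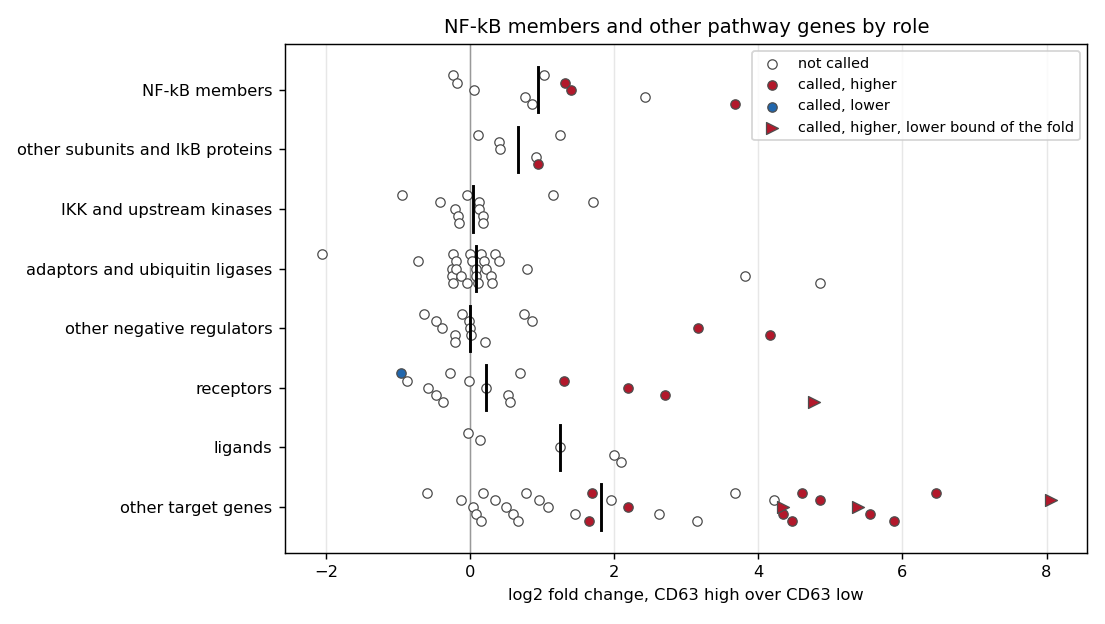
Log2 fold change (CD63 high over CD63 low) of each tested gene by role, with black bars at the list medians, red for genes called higher, blue for the gene called lower and white for the rest. Triangles mark 4 genes with no count in CD63 low cells, drawn at their lower bound, and most red points lie in the receptors and other target genes.

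Scaling moved the number of calls more than their direction. With library size as the only scaling, 6 of the 21 pathway calls and 1 of the 3 member calls were kept, and the median of all tested genes was -0.05. Cd40, Tnfrsf1b, Tnfrsf12a, Tlr4 and Il1r1 were then at edgeR adjusted p of 0.0571, 0.0512, 0.0695, 0.0956 and 0.0877. Every member, and every pathway gene named by the smallest p rule given below, kept its sign under that scaling. The signs of the other genes mentioned were not followed there.

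Markers of other cell types moved with the same groups. The 16 macrophage and myeloid markers summed to 179 and 585 CPM in CD63 high replicates 1 and 2. In CD63 low replicates 1 and 2 the sums were 26.0 and 47.0 CPM. Of these markers 13 rose with edgeR and 8 with limma-voom, against 2.50% and 1.87% of all tested genes. All of the 16 had a higher level in CD63 high replicate 2 than in replicate 1. CD63 high replicate 1 was the higher for 8 of the 10 members, 20 of 37 other target genes and 50.4% of all tested genes. The other 17 target genes, with Ccl5 and Vcam1 among them, were higher in CD63 high replicate 2. The source of these orders was not tested. The members summed to 417 and 244 CPM in CD63 high and 176 and 168 CPM in CD63 low libraries. Ptprc, which marks all leukocytes, had 41 and 131 counts among CD63 high and 1 and 7 among CD63 low libraries. It passed the filter on low counts through the CD63 high libraries alone and could only come out higher. The counts of called markers are therefore a description.

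Duct markers, like the members and the endothelial and lymphocyte markers, summed higher in CD63 high replicate 1 than in replicate 2. The duct sums were 3119 and 1662 CPM in CD63 high and 914 and 1093 CPM in CD63 low libraries. Of 8 detected duct genes 7 were higher in CD63 high replicate 1, as were 50.4% of all tested genes. Only Spp1 of 7 tested duct genes rose with edgeR, against 2.50% of all tested genes. Positive log2 fold changes were seen in 5 of the 7, with a median of 0.73. Of the 9 listed duct genes 1 had no count in each CD63 high library and 2 had none in each CD63 low library. Acinar markers summed to 810 and 1322 CPM against 22.9 and 360 CPM, alpha cell markers to 5546 and 5755 against 395 and 534 CPM, and delta and gamma cell markers to 2868 and 4735 against 582 and 359 CPM. In these 3 lists 2 of 11, 2 of 6 and 6 of 6 tested genes rose with edgeR, against 2.50% of all tested genes. The acinar values varied most with the tool and the libraries. Of the 11 acinar genes 10 were higher at an unadjusted edgeR p under 0.05, against 8.95% of all tested genes. Limma-voom called 7 higher and DESeq2 called 0, against 1.87% and 4.03% of all tested genes. With 1 library left out the acinar median log2 fold change ran from 1.73 to 5.46.

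Endothelial markers, cells in which Icam1 is well known, summed to 5.26 and 1.88 CPM in CD63 high and 2.58 and 1.46 CPM in CD63 low libraries. Of the 11 endothelial genes 3 had no count in any library. Of the 7 endothelial genes that differed between the CD63 high libraries 5 were higher in replicate 1, as were 50.4% of all tested genes. Fibroblast and stellate markers summed to at most 6.22 CPM and lymphocyte markers to at most 2.25 CPM in any library. Of the 10 lymphocyte genes 6 had no count in any library. Of 3 tested endothelial genes 2 had both CD63 high values above both CD63 low values, as did 23.8% of all tested genes. The third had a negative log2 fold change, and the median was 2.69. No gene of the endothelial, fibroblast and lymphocyte lists was called by edgeR. At an unadjusted edgeR p under 0.05, 1 endothelial gene was higher, against 8.95% of all tested genes. DESeq2 and limma-voom called no gene of these 3 lists either. The median log2 fold change of the 2 tested fibroblast genes was 1.52, and 2.39 without CD63 high replicate 1. Of the 10 beta cell markers 3 fell and none rose with edgeR, against 0.287% and 2.50% of all tested genes. The part of these cells in the values of the members was not tested.

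**Figure D5:**
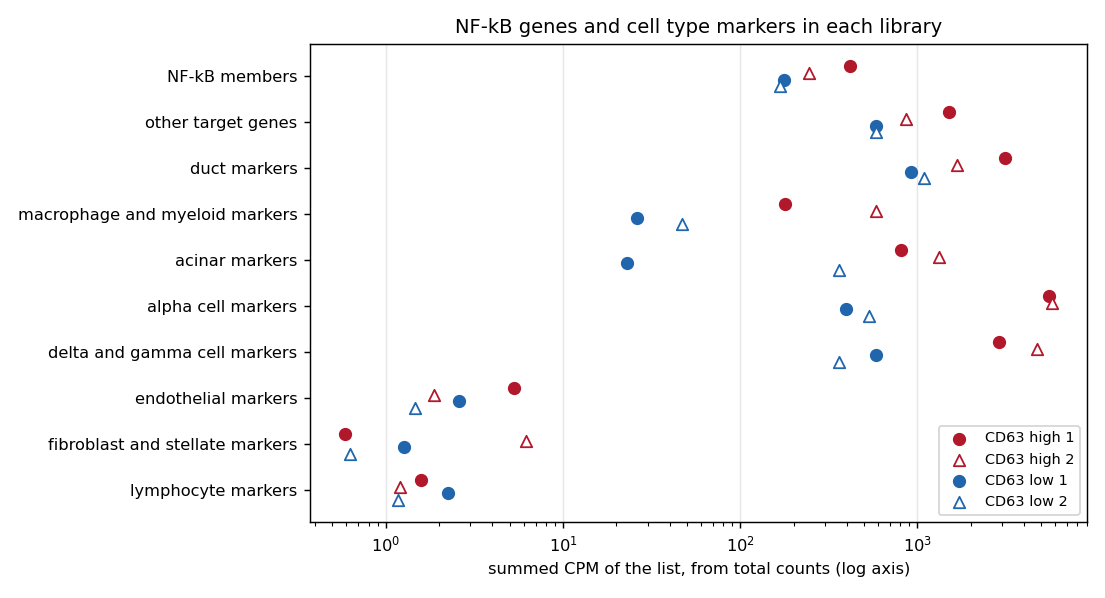
Summed CPM (from total counts, log axis) of the 10 members, the other target genes and 8 marker lists, with 1 point per library. The sums of the members, the other target genes, the duct markers and the endothelial markers are highest in CD63 high replicate 1 (filled red). Single target genes were split, 20 higher in replicate 1 and 17 in replicate 2. The macrophage, acinar, alpha cell, delta and gamma cell, and fibroblast and stellate markers are highest in CD63 high replicate 2 (open red). Lymphocyte markers are highest in CD63 low replicate 1 (filled blue).

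The genes most like the members were sought among tested genes whose average log2 CPM reached 3, by the Euclidean distance between profiles of log2 CPM over the 4 libraries, each centred on its mean. Nearest to the mean profile of the members were H2-D1, a class I antigen gene, at a distance of 0.17, then Ifi27 at 0.18, Igf1r at 0.18, Isg20 at 0.21 and Nr4a2 at 0.21. Distances of the members themselves to that mean ran from 0.27 for Birc3 and 0.29 for Nfkb2 to 2.53 for Icam1. H2-D1 was at 1631 and 1273 CPM in CD63 high and 737 and 715 CPM in CD63 low cells. Over 4 libraries that share depth and processing, this likeness is a description.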

How the data were processed

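Each library has a table of raw counts deposited by the authors. Per the file headers, featureCounts 1.6.2 counted paired fragments by gene name, without a strand option, on the mm10 annotation that comes with Cell Ranger 3.0.0. The submitters' processing notes also list STAR 2.6.0c, FastQC and Cell Ranger, with no role. Whether reads were trimmed is not stated there. Libraries were made with a SMARTer v4 and Nextera XT kit, per the labels' protocols, with no molecular identifiers mentioned, which leaves PCR copies in the counts. Counts of a gene and an overlapping antisense gene cannot be told apart. Of the members, Icam1 shares 511 bases of exon with Gm47079, which had 4 counts in all, and Nfkb2 shares 4 bases with Psd.

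Genes were kept with filterByExpr (minimum count 10, minimum total 15), scaled by TMM, then tested by quasi-likelihood (glmQLFit, glmQLFTest) in edgeR 4.0.16 in R 4.3.3, CD63 high against CD63 low, with Benjamini-Hochberg adjustment over 13241 genes. The step was tested on simulated data. A standard error here is the absolute log2 fold change divided by the root of the F statistic. CPM values are TMM-scaled, and sums over lists use total counts. By library total alone, before TMM scaling, a CPM of 1 stood for 29.2 to 35.0 counts. The alternatives were RLE scaling, library size only, DESeq2 1.42.0, limma-voom 3.58.1, a robust dispersion, no filter, a replicate block and each library left out.

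The members and lists were chosen with earlier results of these data known. Named were all members, up to 4 called genes per direction and pathway list by smallest p, or the 2 smallest p where none was called, and the 5 genes nearest the members. Ptprc and Spp1, from the marker lists, were named outside this rule. The replicate numbers do not pair the samples by any label: the titles number the CD63 low libraries 1 and 2, while the file headers number them 2 and 3. The replicate block uses the titles. The 2 libraries of each group differed beyond sampling noise, with a chi-square of counts of 37.3 per degree of freedom within CD63 high and 73.7 within CD63 low.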

Additional observations from a re-analysis of the deposited data

How the results depend on the processing

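With all libraries 369 genes, 3 members and 21 other pathway genes were called. Library size as the only scaling gave 67 genes, 1 member and 6 pathway genes, DESeq2 gave 686 genes and 5 members, and no filter on low counts gave 940 genes and 5 members. Leaving out 1 library gave 450 to 769 genes, 1 to 5 members and 19 to 30 pathway genes, with the lowest count of members without CD63 high replicate 1 and 769 genes without CD63 low replicate 1. RLE scaling, limma-voom and a robust dispersion kept all 3 counts within 1.5 times. With the replicate block, 616 genes, 4 members and 26 pathway genes were called. The block takes its numbers from the titles, and the file headers number CD63 low replicates 1 and 2 as 2 and 3. Deviations of libraries with the same title number from their group means correlated at -0.101, and crossing the numbers, an alternative chosen after seeing the data, gave 942 genes, 5 members and 31 pathway genes. Icam1 was called in all 12 alternatives, Nfkbia in 10 and Birc3 in 8, and Tnfaip3, not called with all libraries, in 8. Every member but Rela kept its sign in all 12, and Rela was at -0.11 without CD63 high replicate 1. The cause of these differences was not tested. Tnfaip3 and Icam1 had 71 and 70 counts over the CD63 low libraries, and the effect of depth was not tested.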
